A study of Mus musculus with 7 samples.

Results

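Endocannabinoids are lipid signals that a cell makes on demand from its membranes, and *Daglb*, *Dagla*, *Mgll*, *Abhd6*, *Abhd12*, *Napepld*, *Faah* and *Cnr1* encode enzymes that make or degrade them and the receptor that senses them. These 8 genes were followed among the 19938 genes measured in mouse primary hepatocytes transfected with miR-709. The set was assembled with results of these arrays known. *Daglb* was chosen by its lower signal with miR-709 on these same arrays, so its values are a description without a test, and its presence in the set is no finding. The other 7 were chosen by role, as the paralog of *Daglb*, the enzymes around its product and around the related lipid anandamide, and their receptor. Each of the 8 genes had 1 probe set, the group of probes that reads a gene, and no filter on low signal was applied.

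The hepatocytes came from male C57BL/6J mice with no genetic change named and were separated from the other liver cells on a Percoll gradient, then kept in medium with serum, insulin and dexamethasone. One group of cultures received 1 µg of the miR-709 mimic (4 arrays, replicates A to D), and the control group received 1 µg of Cel-239b, a worm miRNA (3 arrays, replicates B to D), both by lipid transfection and for 24 h. No untreated culture or other time point has an array, and miR-709 levels, protein, enzyme activity and the lipids themselves were not measured on these arrays. The sources used here do not say whether the replicates came from separate mice or isolations, so the p-values reflect how far these arrays spread, which may be technical variation alone.

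Diacylglycerol lipases, encoded by *Dagla* and *Daglb*, remove a fatty acid from diacylglycerol and leave 2-arachidonoylglycerol (2-AG), the most abundant endocannabinoid. Monoacylglycerol lipase, encoded by *Mgll*, and to a smaller extent the serine hydrolases of *Abhd6* and *Abhd12* split 2-AG into glycerol and arachidonate, the precursor of prostaglandins. Anandamide takes a separate route, in which the phospholipase D of *Napepld* releases it from a membrane phospholipid and the fatty acid amide hydrolase of *Faah* degrades it. In mice, loss of *Dagla* lowers 2-AG most clearly in brain, while loss of *Daglb* lowers it in liver. Both lipids act on the receptor CB1, the product of *Cnr1*, which is scarce in healthy hepatocytes.

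All values are log2 signals after RMA, a scale on which a difference of 1 is a 2-fold difference. Probes differ in how strongly they bind, so a signal is compared between arrays and not between genes. A gene counts as called, lower or higher, where its limma adjusted p (Benjamini-Hochberg over the 19938 genes) was under 0.05. Array medians were 5.04 to 5.07, and over all genes the standard error of the difference had a median of 0.076 on the log2 scale. All 11 hepatocyte markers measured, of 14 listed, had a mean signal over 6. The same was counted for 0 of 10 sinusoidal endothelial markers, 1 of 12 stellate cell markers, 1 of 12 Kupffer cell and leukocyte markers and 2 of 7 cholangiocyte markers, which gives only a rough check of the label. The miR-709 arrays C and D stood apart from the others in interferon-stimulated genes, with a mean log2 signal over 13 such genes of 8.50 and 8.48, against 7.38 and 7.45 on miR-709 arrays A and B and 7.38, 7.48 and 7.71 on the Cel-239b arrays. None of the 13 was called between treatments by limma, and 2 had an unadjusted p under 0.05. The main results are therefore also given without arrays C and D, an alternative added after the data were seen.

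Of the 8 genes, 1 was lower (*Daglb*) and 1 was higher (*Faah*) with miR-709 in the comparison that called 1.47% of all genes lower and 1.81% higher. The arrays of the treatments did not overlap for *Daglb* and *Faah*, that is for 2 of the 8 genes, against 12.3% of all genes. Nothing is read from these counts, since *Daglb* entered by this contrast and the set holds few genes. The median log2 fold change (miR-709 minus Cel-239b) was 0.02 over the 8 genes and 0.01 over all genes.

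**Figure D1:**
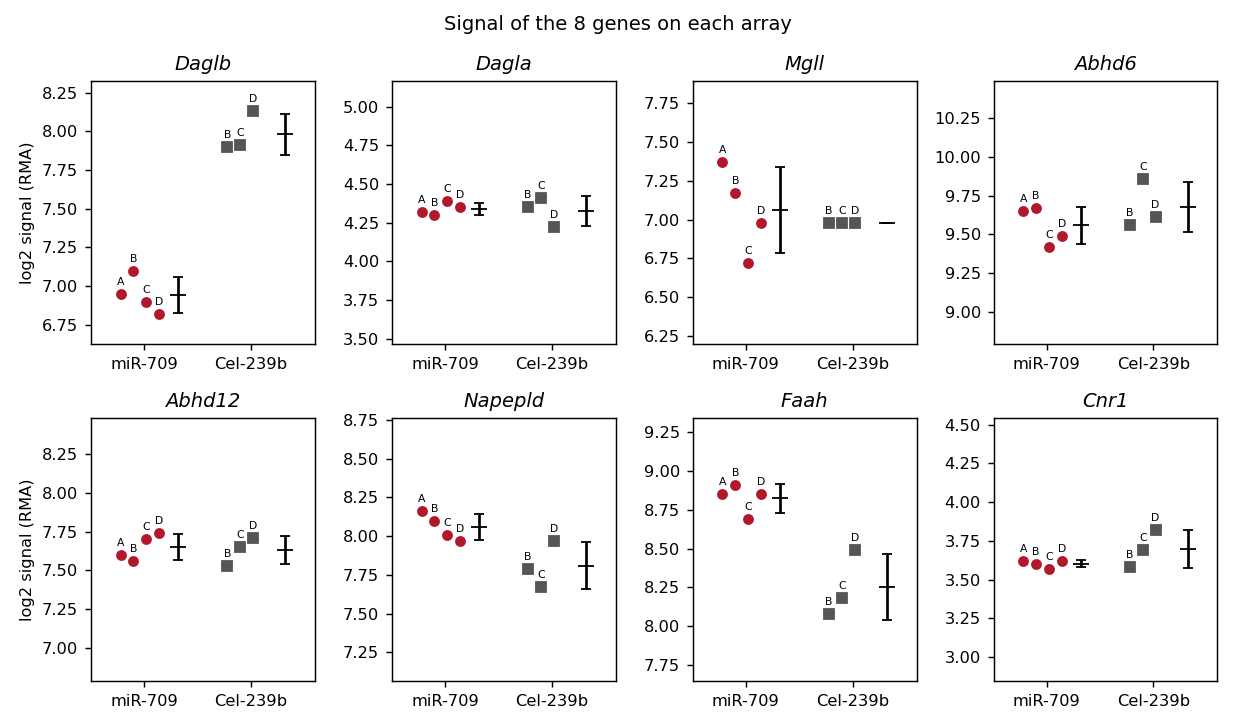
Log2 RMA signal (y axis) of each of the 8 genes on every array, with miR-709 replicates A to D as red circles and Cel-239b replicates B to D as grey squares, and the mean with SD as a black bar beside them. Each panel spans the same height and its axis does not start at 0; *Daglb* lies between 6.82 and 7.10 with miR-709 and between 7.90 and 8.13 with Cel-239b, *Faah* lies higher with miR-709 on every array, and the other 6 genes overlap or touch.

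*Daglb*, the diacylglycerol lipase of the liver, had log2 signals of 6.95, 7.10, 6.90 and 6.82 on miR-709 arrays A to D, against 7.90, 7.91 and 8.13 on Cel-239b arrays B to D. Every miR-709 array lay below every Cel-239b array. The means were 6.94 ± 0.12 with miR-709 (SD, n = 4) and 7.98 ± 0.13 with Cel-239b (SD, n = 3), a log2 fold change of -1.04 or a 2.05-fold lower signal. By log2 fold change it was number 31 from the lowest of the 19938 genes. Its log2 fold change was between -1.09 and -0.96 in 18 other ways of processing the arrays. It was -0.96 both without Cel-239b array D and without miR-709 arrays C and D. Changes of the test, of the genes tested or of probe set averaging cannot move this value, since *Daglb* has 1 probe set. In bulk cells, fewer cells that express a gene and less RNA of it per cell cannot be told apart.

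Its paralog *Dagla*, the diacylglycerol lipase known best from neurons, was not called. Its log2 signal was 4.30 to 4.39 on the miR-709 arrays and 4.22 to 4.41 on the Cel-239b arrays, below the median signal of each array. The log2 fold change was 0.01, with a 95% confidence interval from -0.13 to 0.15 (limma adjusted p = 0.951). At a signal this low the interval describes the probe set and sets no limit on a change in the transcript.

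The 3 hydrolases that degrade 2-AG were not called, and all 3 overlapped between treatments. *Mgll*, the main 2-AG hydrolase, had log2 signals of 7.37, 7.17, 6.72 and 6.98 on miR-709 arrays A to D, against 6.98 on each of Cel-239b arrays B, C and D. It was thus above the control value on A and B, equal to it on D and below it on C. The log2 fold change was 0.08 (95% confidence interval -0.21 to 0.37, limma adjusted p = 0.834), and without miR-709 arrays C and D it was 0.29 (limma adjusted p = 0.216). Equal values on all 3 Cel-239b arrays, to the precision deposited, occurred for 328 genes (1.65%), of which 39 had a mean signal of at least 6.

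*Abhd6*, a membrane hydrolase of monoacylglycerols, had log2 signals of 9.65, 9.67, 9.42 and 9.49 on the miR-709 arrays, against 9.56, 9.86 and 9.61 on the Cel-239b arrays. The lowest values were those of miR-709 arrays C and D. The log2 fold change was -0.12 (95% confidence interval -0.33 to 0.09, limma adjusted p = 0.608), and without those arrays it was -0.02. *Abhd12*, which also degrades the signalling lipid lysophosphatidylserine, had a log2 signal of 7.56 to 7.74 with miR-709 and 7.53 to 7.71 with Cel-239b. Its log2 fold change of 0.02 had a 95% confidence interval from -0.14 to 0.18 (limma adjusted p = 0.93).

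**Figure D2:**
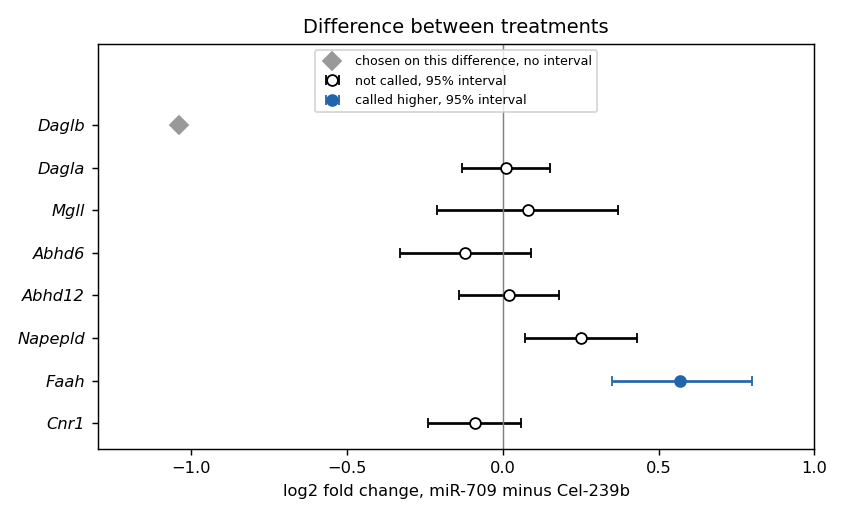
Log2 fold change of each gene, miR-709 minus Cel-239b (x axis), with 95% confidence intervals from limma for the 7 genes chosen by role. *Faah* (filled, 0.57) was called higher, open circles were not called, and *Daglb* (grey diamond, -1.04) has no interval because it was chosen on this difference.

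Of the enzymes on the anandamide route, the degrading enzyme rose with miR-709. *Faah* had log2 signals of 8.85, 8.91, 8.69 and 8.85 on miR-709 arrays A to D, against 8.08, 8.18 and 8.49 on Cel-239b arrays B to D. Each miR-709 array was above each Cel-239b array, with array C of miR-709 and array D of Cel-239b the closest. The means were 8.82 ± 0.09 with miR-709 (SD, n = 4) and 8.25 ± 0.21 with Cel-239b (SD, n = 3). The log2 fold change was 0.57 with a standard error of 0.1 and a 95% confidence interval from 0.35 to 0.8, a 1.49-fold higher signal (limma adjusted p = 0.0135). It was number 85 from the highest of the 19938 genes by log2 fold change.

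The size of the *Faah* difference was 0.49 to 0.7 on the log2 scale in the 18 alternatives, and its adjusted p was 0.00601 to 0.143. The call held in 12 of them. It was lost in the methods' t-test, which does not moderate the variances (adjusted p = 0.143). It was also lost without miR-709 array B (limma adjusted p = 0.0521), miR-709 array D (0.056), Cel-239b array B (0.0636) or Cel-239b array C (0.0874). Without miR-709 arrays C and D together the log2 fold change was 0.63 and the limma adjusted p was 0.118.

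**Figure D3:**
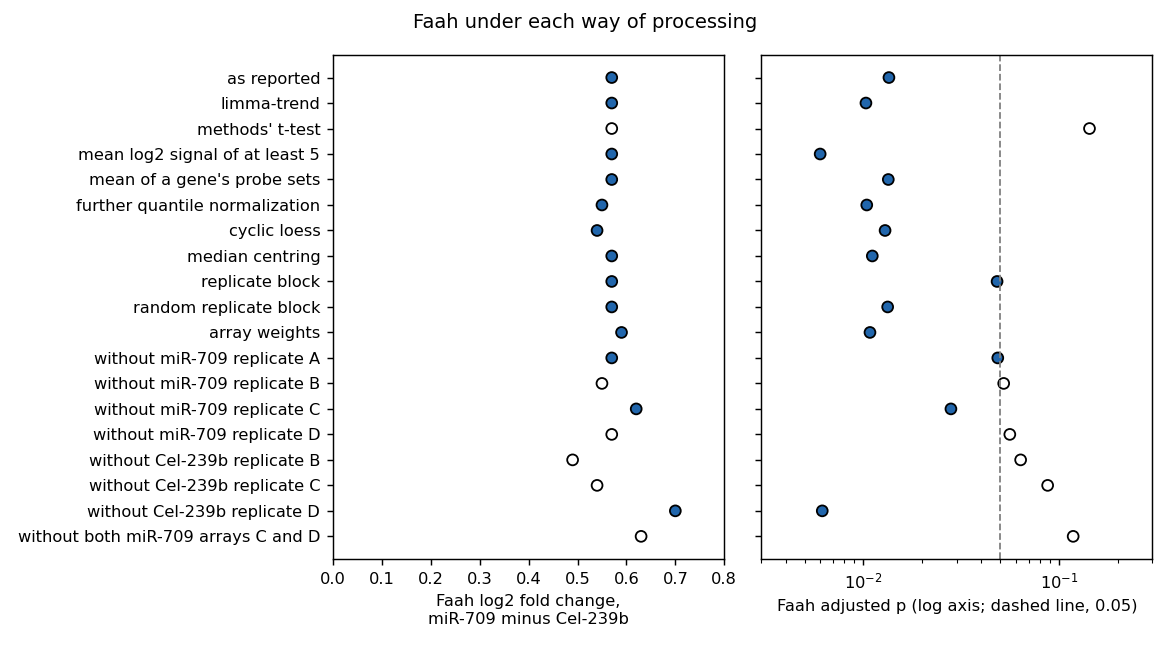
Log2 fold change of *Faah*, miR-709 minus Cel-239b (left, x axis), and its adjusted p on a log axis (right), as reported and under 18 other ways of processing the 7 arrays. Filled points have an adjusted p under 0.05; the fold change lies between 0.49 and 0.7 throughout, while the adjusted p crosses the dashed line at 0.05 in 6 alternatives.

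*Napepld*, which makes anandamide and other N-acylethanolamines, had log2 signals of 8.16, 8.10, 8.01 and 7.97 on the miR-709 arrays, against 7.79, 7.67 and 7.97 on the Cel-239b arrays. The lowest miR-709 array and the highest Cel-239b array had the same value. The log2 fold change was 0.25, a 1.19-fold higher signal, with a 95% confidence interval from 0.07 to 0.43, and it did not pass the test over all genes (limma adjusted p = 0.176, and 0.072 to 0.436 in the alternatives). *Cnr1*, the CB1 receptor gene, had a log2 signal of 3.57 to 3.62 with miR-709 and 3.58 to 3.82 with Cel-239b. Its log2 fold change was -0.09 (95% confidence interval -0.24 to 0.06, limma adjusted p = 0.566).

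Of the 11 hepatocyte markers measured, 3 (*Hnf4a*, *Cps1* and *Tat*) were called higher, against 1.81% of all genes, and 8 were not called. The median log2 fold change of the list was 0.03, and 8 of the 11 lay above 0, against 54.6% of all genes. The mean log2 signal over the list was 11.26 to 11.38 on the miR-709 arrays and 11.09 to 11.20 on the Cel-239b arrays. Cholangiocyte markers averaged 5.18 to 5.38 over 7 genes with miR-709 and 5.50 to 5.55 with Cel-239b, with a median log2 fold change of -0.08. Of these 1, the keratin gene *Krt19* (log2 fold change -1.23, limma adjusted p = 0.0377), was called lower, against 1.47% of all genes, and 3 had an unadjusted p under 0.05. Of the 18 alternatives, the call of *Hnf4a* held in 18, *Tat* in 15, *Cps1* in 12 and *Krt19* in 9. With single arrays left out, *Krt19* kept its call only where miR-709 array A was the one removed, with adjusted p of 0.053 to 0.158 in the other 6 cases, and *Cps1* lost its call without miR-709 array B (0.0525) or C (0.0554) or Cel-239b array B (0.0742) or D (0.0544). The part of either list in the values of *Faah* and *Daglb* was not tested. Stellate cell markers (4.75 to 4.86 with miR-709 and 4.78 to 4.86 with Cel-239b), Kupffer cell and leukocyte markers (4.40 to 4.48 with miR-709 and 4.40 to 4.47 with Cel-239b) and endothelial markers (4.95 to 5.01 with miR-709 and 4.91 to 4.99 with Cel-239b) overlapped between treatments. In these lists 0 genes were called by limma, and 1 stellate cell, 0 Kupffer cell or leukocyte and 2 endothelial markers had an unadjusted p under 0.05. A mean signal over 6 was reached by 1 of 12, 1 of 12 and 0 of 10 of them. The overlap and the lack of calls therefore say little about these cells.

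On single arrays the 8 genes did not follow the interferon-stimulated genes in one way. Relative to the Cel-239b mean, the interferon-stimulated genes averaged -0.15 and -0.07 on miR-709 arrays A and B and 0.98 and 0.96 on C and D. *Daglb* deviated by -1.03 and -0.88 on A and B and by -1.08 and -1.16 on C and D. *Faah* deviated by 0.60 and 0.66 on A and B and by 0.44 and 0.60 on C and D. The *Daglb* values are those on which it was chosen, so they are a description only. *Mgll* deviated by 0.39 and 0.19 on A and B and by -0.26 and 0.00 on C and D. For *Abhd6* these were -0.03 and -0.01, then -0.26 and -0.19, and for *Napepld* 0.35 and 0.29, then 0.20 and 0.16. *Daglb*, *Mgll*, *Abhd6* and *Napepld* were thus lower on both C and D than on A and B. *Abhd12* (-0.03 and -0.07, then 0.07 and 0.11) and *Dagla* (-0.01 and -0.03, then 0.06 and 0.02) were higher there. The part of the interferon-stimulated genes in the values of the 8 genes was not tested.

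**Figure D4:**
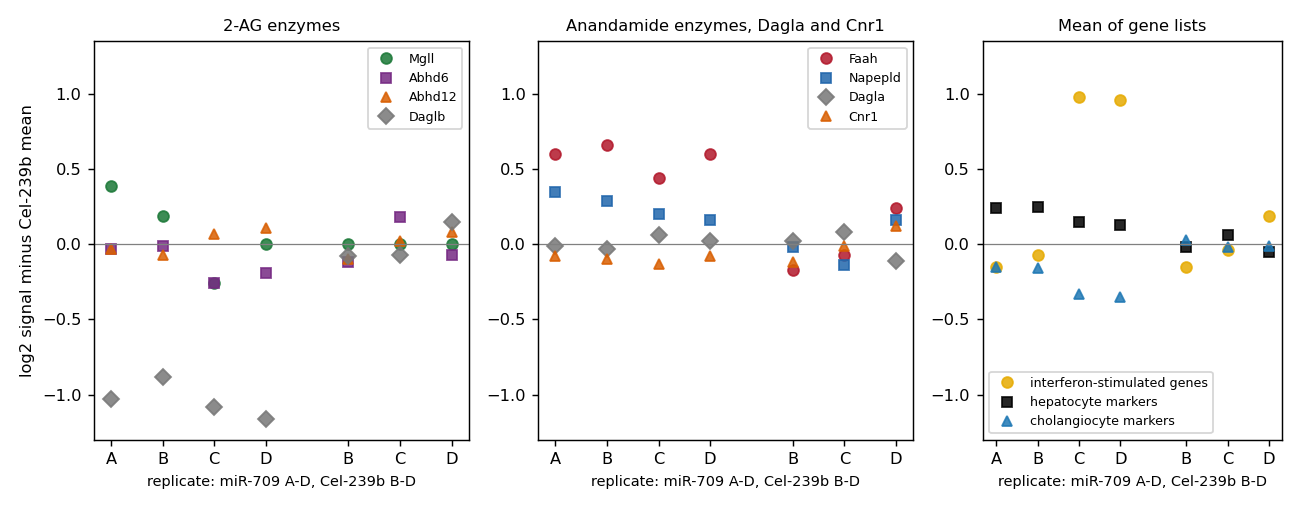
Log2 signal of each array minus the Cel-239b mean (y axis) for *Mgll*, *Abhd6*, *Abhd12* and *Daglb* (left), for *Faah*, *Napepld*, *Dagla* and *Cnr1* (middle) and for the mean of 3 gene lists (right), with miR-709 replicates A to D left of Cel-239b replicates B to D. Interferon-stimulated genes stand near 1 on miR-709 arrays C and D alone. On the miR-709 arrays *Daglb* is between -1.16 and -0.88 and *Faah* between 0.44 and 0.66.

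Genes around the 8 were taken from 8 pathway lists, which were also written with results of these arrays known. Together the lists held 111 measured genes, of which 3 were called lower and 1 higher with miR-709, or 3.6% against 3.28% of all genes tested. The median log2 fold change was 0.04 over the 111 genes, and 15 had an unadjusted p under 0.05. The share of all genes with an unadjusted p under 0.05 was not counted. Nothing is therefore read from this count, or from the same counts in single pathway and marker lists. The called genes lay in 4 different lists. Their treatments did not overlap, which was so for 12.3% of all genes. The same held for *Dgkq*, *Prkd3*, *Naaa*, *Abhd11* and *Scp2*, which are named below and were not called.

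Upstream of *Daglb*, phospholipase C enzymes make diacylglycerol from membrane phosphoinositides. None of the 14 genes measured was called by limma, and 0 had an unadjusted p under 0.05. The median log2 fold change was 0.00. A mean signal over 6 was reached by 4 of the 14, so the lack of calls says little about the others. The largest log2 fold changes were those of *Plcl1*, a relative without catalytic activity (0.32, limma adjusted p = 0.402), and *Plce1* (0.23, limma adjusted p = 0.393).

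Other enzymes use the same diacylglycerol, either by phosphorylating it to phosphatidic acid (the diacylglycerol kinases) or by building triglyceride from it (the acyltransferases). Among the 11 measured of 13, 1 fell and 0 rose, 4 had an unadjusted p under 0.05, and the median log2 fold change was -0.16. *Dgkh*, the kinase of the eta type, had log2 signals of 6.86, 6.90, 6.70 and 6.70 on the miR-709 arrays, against 7.51, 7.49 and 7.17 on the Cel-239b arrays. The treatments did not overlap, and the log2 fold change was -0.60 with a standard error of 0.1, a 1.52-fold lower signal (limma adjusted p = 0.00892). The call was lost in 4 of 18 alternatives: the methods' t-test (adjusted p = 0.114), without Cel-239b array B (limma adjusted p = 0.0539), without Cel-239b array C (0.0612) and without miR-709 arrays C and D (0.153). *Dgkq*, the theta kinase, had a log2 fold change of 0.25 and was not called (limma adjusted p = 0.0999).

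Protein kinases C and D are switched on by diacylglycerol in the membrane. Of the 9 genes measured, 1 rose and 0 fell, 2 had an unadjusted p under 0.05, and the median log2 fold change was 0.04. *Prkca*, a classical protein kinase C, had log2 signals of 6.56, 6.48, 6.47 and 6.48 on the miR-709 arrays, against 6.06, 6.13 and 6.13 on the Cel-239b arrays. The groups were tight and did not overlap. The log2 fold change was 0.39 with a standard error of 0.05, a 1.31-fold higher signal (limma adjusted p = 0.00504). Its call held in 16 of 18 alternatives, and without miR-709 arrays C and D it was lost (limma adjusted p = 0.0614). *Prkd3*, a protein kinase D, had a log2 fold change of 0.32 (limma adjusted p = 0.0603), and it passed the test without miR-709 array C (0.0363) and among genes with a mean signal of at least 5 (0.0314).

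Beside *Napepld* and *Faah*, 11 further genes make or degrade N-acylethanolamines. None was called by limma and 0 had an unadjusted p under 0.05, with a median log2 fold change of 0.04. Only 4 of the 11 had a mean signal over 6, so for the others the lack of calls says little. *Abhd4*, which acts on the same phospholipids as *Napepld*, had a log2 fold change of 0.17 (limma adjusted p = 0.45). *Naaa*, the lysosomal counterpart of *Faah*, had 0.15 (limma adjusted p = 0.361). The 95% confidence interval was -0.04 to 0.38 for *Abhd4* and -0.01 to 0.3 for *Naaa*, beside 0.35 to 0.8 for *Faah*, and the differences between these genes were not tested.

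The 18 listed other genes of the Abhd family, the fold shared by *Abhd6* and *Abhd12*, held 0 calls by limma and 3 genes with an unadjusted p under 0.05. Of them 15 had a log2 fold change above 0, against 54.6% of all genes, and the median was 0.11. The largest were *Abhd11*, a mitochondrial hydrolase (0.25, limma adjusted p = 0.133), and *Abhd3*, a phospholipase (0.23, limma adjusted p = 0.287). *Abhd12b*, with a mean signal of 2.75, was measured but not in the list (log2 fold change -0.06, limma adjusted p = 0.71).

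Among 15 further receptors and carriers of endocannabinoids, 0 were called by limma and 2 had an unadjusted p under 0.05, with a median log2 fold change of 0.02. Of the 15, 5 had a mean signal over 6, and the lack of calls says little about the rest. *Scp2*, a lipid carrier of peroxisomes, had a log2 fold change of 0.25 (limma adjusted p = 0.0726). It passed the test in 2 of 18 alternatives, with limma-trend (0.0459) and among genes with a mean signal of at least 5 (0.0406). *Fabp5*, a fatty acid binding protein that carries anandamide, had a log2 fold change of -0.22 (limma adjusted p = 0.374).

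The arachidonate that 2-AG contains and releases is made, stored and oxidised by other enzymes, of which 25 of 27 were measured. Of these 1 fell and 0 rose, 2 had an unadjusted p under 0.05, and the median log2 fold change was 0.02. *Fads2*, the delta-6 desaturase at the start of arachidonate synthesis, had log2 signals of 10.43, 10.25, 10.07 and 10.04 on the miR-709 arrays, against 10.67, 10.69 and 10.59 on the Cel-239b arrays. All miR-709 arrays lay below all Cel-239b arrays, and C and D lay lowest. The log2 fold change was -0.45 with a standard error of 0.09, a 1.37-fold lower signal (limma adjusted p = 0.034). The call held in 9 of 18 alternatives, with an adjusted p of 0.013 to 0.204. Of single arrays, only the removal of miR-709 array A kept it: it was lost without miR-709 array B (0.081), C (0.108) or D (0.0982) and without Cel-239b array B (0.127), C (0.156) or D (0.0745), and also without miR-709 arrays C and D together (log2 fold change -0.31, adjusted p = 0.196), with array weights (0.0505) and in the methods' t-test (0.204). *Alox12*, a lipoxygenase, had a log2 fold change of -0.21 (limma adjusted p = 0.418).

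Of 9 other lipases measured of 10, 1 fell and 0 rose, 2 had an unadjusted p under 0.05, and the median log2 fold change was 0.09. *Ddhd2*, which encodes a phospholipase A1 and triglyceride lipase, had log2 signals of 6.97, 7.06, 7.11 and 7.29 on the miR-709 arrays, against 7.63, 7.56 and 7.66 on the Cel-239b arrays. The treatments did not overlap. The log2 fold change was -0.51 with a standard error of 0.08, a 1.42-fold lower signal (limma adjusted p = 0.00787), and the call was lost in 1 of 18 alternatives, the methods' t-test (adjusted p = 0.0857). *Pnpla2*, the adipose triglyceride lipase that yields diacylglycerol from stored fat, had a log2 fold change of 0.18 (limma adjusted p = 0.277).

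**Figure D5:**
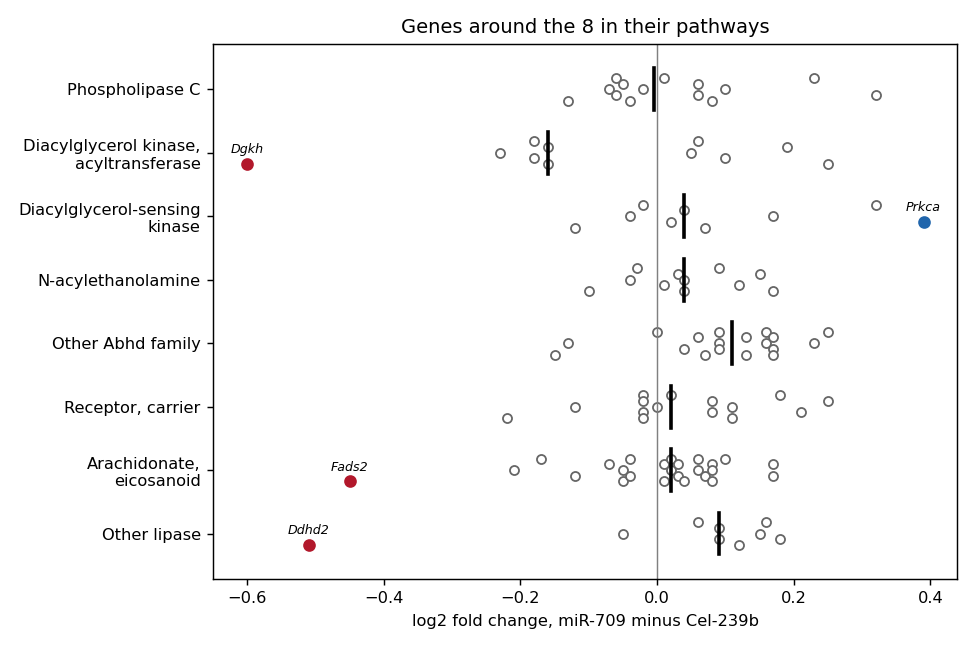
Log2 fold change, miR-709 minus Cel-239b (x axis), of every measured gene of the 8 pathway lists, with the median of each list as a black bar and the vertical spread of points only to part them. Filled red points were called lower (*Dgkh*, *Fads2* and *Ddhd2*), the filled blue point higher (*Prkca*), and open points were not called.

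The genes whose signal was most like that of *Daglb* were sought among 8754 genes with a mean signal of at least 6 in one group. Over all 7 arrays the highest Pearson correlations were those of *Ces1g* (0.997), *Psmd9* (0.996), *Tstd2* (0.995), *Mpzl2* (0.995) and *Pmpca* (0.994). *Ces1g*, a carboxylesterase, had a mean signal of 5.94 with miR-709 and 7.63 with Cel-239b, so it entered this comparison only through the Cel-239b arrays. All 5 were lower with miR-709, with log2 fold changes of -1.69, -0.35, -1.09, -1.27 and -0.89, in the same order. These correlations include the split between treatments that the genes share, so the lower direction of all 5 was fixed by the choice and is no finding. Over deviations from the treatment mean, which leave the split out, other genes led: *Tm9sf1* (0.993), *Ddx11* (0.987), *S100a3* (0.974), *E4f1* (0.974) and *Aarsd1* (0.973). Their log2 fold changes were 0.13, -0.07, 0.02, 0.09 and 0.04, so none of them shared the lower signal of *Daglb*. Both groups of genes are given as a description over the same 7 arrays.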

How the data were processed

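Total RNA of hepatocytes transfected with miR-709 or Cel-239b was hybridised to Affymetrix Mouse Gene 1.0 ST arrays. The authors deposited 1 log2 signal for each probe set and array, made with RMA in Partek (background correction, quantile normalization and probe summary), in versions not given in the sources used here. Quantile normalization gives the probe values of all arrays 1 distribution before the probe summary, so a shift common to all genes is lost. Depth does not apply, and the number of arrays limits the precision.

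Of 28853 probe sets, 21789 had 1 gene symbol in the platform annotation, 1621 several and 5443 none. The brightest probe set of each of 999 genes with several was used, which gave 19938 genes. Treatments were compared with limma 3.58.1 in R 4.3.3 (lmFit and eBayes, 2-sided, Benjamini-Hochberg, called at an adjusted p under 0.05), a moderated form of the 1-way ANOVA of the methods, and the procedure was tested on simulated data.

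The members and lists were chosen with earlier results of these data known. Named were the 8 genes, in each list the called genes (up to 4) or else the largest changes up to 2 names, and the 5 genes most like *Daglb* by each measure. The called marker genes were named after their values were seen. Alternatives tried were the methods' t-test, limma-trend, genes with a mean signal of at least 5, averaged probe sets, further quantile normalization, cyclic loess, median centring, a fixed or a random block by replicate letter, array weights, each array left out and, added after the data were seen, both miR-709 arrays C and D left out. No deposited genome or 3' UTR sequence was used here, so sites for the miRNA were not analysed.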

Additional observations from a re-analysis of the deposited data

Results flagged for a closer look

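Among the 24 genes named from the 8 genes and their pathways, 1 had an array far from the others of its treatment. *Prkca*, the classical protein kinase C that diacylglycerol switches on, had a log2 signal of 6.56 on miR-709 array A, while miR-709 arrays B, C and D lay at 6.48, 6.47 and 6.48. The gap to the nearest array was 0.889 of the range of the 4 arrays, past the critical value of Dixon's test. The 4 arrays nevertheless lay close together, with an SD of 0.04, where the median SD within treatments over all genes was 0.102. Chance gives such a gap in about 5% of groups, so 1 flag among 24 genes is no surprise. Without array A the call of *Prkca* held.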

How the results depend on the processing

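Of the 7 genes chosen by role, the number called (1, *Faah*) became 0 with the methods' t-test and without miR-709 arrays C and D, and was 0 to 1 with single arrays left out. The sign turned for *Dagla* (-0.02 without both arrays, -0.04 to 0.06 with single arrays left out), *Mgll* (-0.02 with the replicate block, -0.02 to 0.19 with single arrays left out) and *Abhd12* (-0.01 with cyclic loess, -0.05 without both arrays, -0.03 to 0.06 with single arrays left out), none of which was called in any alternative. List genes called lower (3) became 0 with the methods' t-test, 1 without both arrays and 1 to 3 with single arrays left out. Those called higher (1) became 2 with limma-trend, 3 among genes with a mean signal of at least 5, 0 with the replicate block, 0 without both arrays and 1 to 2 with single arrays left out. All genes called lower (293) and higher (361) became 113 and 113 with the methods' t-test, 92 and 76 without both arrays, 221 and 180 with the replicate block, 181 to 244 and 180 to 294 with single arrays left out, 333 and 304 with cyclic loess and 334 and 335 with further quantile normalization. Leaving out arrays leaves fewer to test, and the cause of the other shifts was not tested.

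The replicate letters B, C and D are shared by both treatments, but deviations from the treatment mean correlated by only 0.019, 0.017 and 0.046 between arrays of the same letter. Between arrays of different letters the correlations were -0.059 to 0.078. Arrays of the same letter thus did not stand out, but so few arrays cannot exclude that the letters pair them. With the replicate block the call of *Faah* held (limma adjusted p = 0.0482) and that of *Prkca* was lost (0.0568). *Dagla* and *Cnr1* have no value among genes with a mean signal of at least 5, and at signals this low the arrays limit what can be detected.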
